A study of Mus musculus with 6 samples.

Results

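Lysosomal hydrolases and membrane proteins were followed as 31 named genes, and the arrays carried probe sets for all 31 among 15964 genes with a single annotated symbol. A gene was a member if a probe set on any of the 3 chips had its symbol as the only one. Each gene was represented by the probe set with the highest level rank within its chip. The data were 6 single-colour arrays of total RNA labelled as spermatogonia, the germ cells that divide before meiosis begins. On each chip 1 array carried RNA of wild-type mice (WT) and the other RNA of mice with a knockout of Zfp145 (Null), all 1 week old and of a mixed 129sv and C57Bl/6 background. Zfp145 is the older name of Zbtb16, the gene of the transcriptional repressor PLZF. The chips U74Av2, U74Bv2 and U74Cv2 carry different probe sets, so no value has a replicate and no p-value is given. The labels do not say how many animals were pooled, which part of Zfp145 was deleted, or how the cells were isolated.

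Lysosomes are acidic organelles in which proteins, glycans, sulfated sugars and lipids are taken apart. Most soluble lysosomal enzymes receive a mannose 6-phosphate tag in the Golgi and are sorted by receptors that recognise it, while proton pumps acidify the lumen and heavily glycosylated membrane proteins line it. Many lysosomal genes carry an E-box in their promoters, the CLEAR element, which is read by transcription factors of the TFEB family. In the testis, Sertoli cells, which engulf residual bodies and dying germ cells, and resident macrophages are rich in lysosomes.

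The E-box was counted in the promoters of the members. RefSeq promoter windows of the build GRCm38.p6, 250 bases before to 50 after a gene's start, were found for 27 of the 31 genes. No entry was found for Ctsb, Ctsh, Asah1 and Npc1. The palindrome CACGTG, which reads the same on both strands, lay in a window of 9 of the 27 members (33.3%), against 8.09% of 27025 genes with a window and 10.6% of the 12681 such genes on the arrays. The longer form GTCACGTG, searched on both strands and overlapping the first, lay in 7 of them (25.9%), against 2.55% of all genes and 4.06% of those on the arrays. The form TCACGTGA, which overlaps both, lay in Ctsa, Ctsd and Gla, against 1.12% of all genes and 1.80% of those on the arrays. Among other gene lists, CACGTG lay in 9 of 35 further lysosomal genes and in 4 of 11 subunits of the proton pump with a window. A match is a match of letters and does not show that a factor binds there.

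The stretches around these matches are shown for the 9 of 27 members that carry one. Members were named as lysosomal genes, many of which carry this element, so the shares above are not independent of that choice. CACGTG is in capitals, each stretch is written 5′ to 3′ along its gene, and Lamp1 carries 4 matches within the last 61 bases before its start.
Lamp1, a major glycoprotein of the lysosomal membrane, chr8:13159080-13159171, plus strand: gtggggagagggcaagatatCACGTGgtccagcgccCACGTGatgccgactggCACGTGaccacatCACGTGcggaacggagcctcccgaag
Ctsa, the serine carboxypeptidase that protects beta-galactosidase and neuraminidase, chr2:164833741-164833797, plus strand: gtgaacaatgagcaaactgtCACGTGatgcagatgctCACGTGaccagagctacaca
Gla, alpha-galactosidase A, chrX:134601174-134601252, minus strand: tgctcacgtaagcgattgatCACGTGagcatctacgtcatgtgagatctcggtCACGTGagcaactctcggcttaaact
Glb1, beta-galactosidase, chr9:114401010-114401055, plus strand: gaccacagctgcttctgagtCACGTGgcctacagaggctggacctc
Gaa, the acid alpha-glucosidase that degrades glycogen, chr11:119267803-119267848, plus strand: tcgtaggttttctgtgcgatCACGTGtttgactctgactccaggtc
Arsa, arylsulfatase A, chr15:89477415-89477460, minus strand: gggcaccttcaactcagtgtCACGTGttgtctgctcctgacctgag
Lgmn, the asparaginyl endopeptidase legumain, chr12:102439116-102439161, minus strand: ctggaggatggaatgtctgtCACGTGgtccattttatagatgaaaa
Ctsl, the cysteine protease cathepsin L, chr13:64370731-64370770, minus strand: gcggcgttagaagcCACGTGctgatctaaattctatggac

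Ctsd, the aspartic protease cathepsin D, carries 2 matches farther apart, and the 250 bases before its start are shown in full because its ratio lay farthest from the middle of all genes when set against the spread between probe sets.
Ctsd, chr7:142387828-142388077, minus strand: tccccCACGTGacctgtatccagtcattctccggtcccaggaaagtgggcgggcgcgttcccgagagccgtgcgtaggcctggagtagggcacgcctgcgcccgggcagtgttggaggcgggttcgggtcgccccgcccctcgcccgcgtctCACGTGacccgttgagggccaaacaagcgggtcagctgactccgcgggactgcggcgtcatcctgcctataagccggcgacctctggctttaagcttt

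Across genotypes the lysosomal genes differed little. A floor was set at the 40th percentile of each chip, and lower values were raised to it. Signal lay above the floor on both arrays for 29 of the 31 genes. None of the 29 was 2-fold higher or 2-fold lower in the Null array, where 1.46% of all 12439 measured genes were at least 2-fold higher and 1.71% at least 2-fold lower. None reached 1.5-fold either, against 11.9% of all genes. The ratios of the members ran from -0.44 for Ppt1 to 0.43 for Gusb on the log2 scale of Null over WT. Their quartiles were -0.17 and 0.0044, against -0.22 and 0.20 for all genes. Most members, 24 of the 29, were read on U74Av2, where 0.766% of genes were at least 2-fold different in either direction and 6.5% at least 1.5-fold. These shares and quartiles of all genes were not matched for signal level, and many members were bright. Raising the floor to the 60th percentile left out more dim genes and kept 25 members. The share of all genes at least 2-fold different in either direction then fell from 3.18% to 1.04%. How far brightness accounts for the narrow range of the members was not tested. In RNA of a mixed sample, fewer cells of a type and less RNA per cell cannot be told apart.

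**Figure D1:**
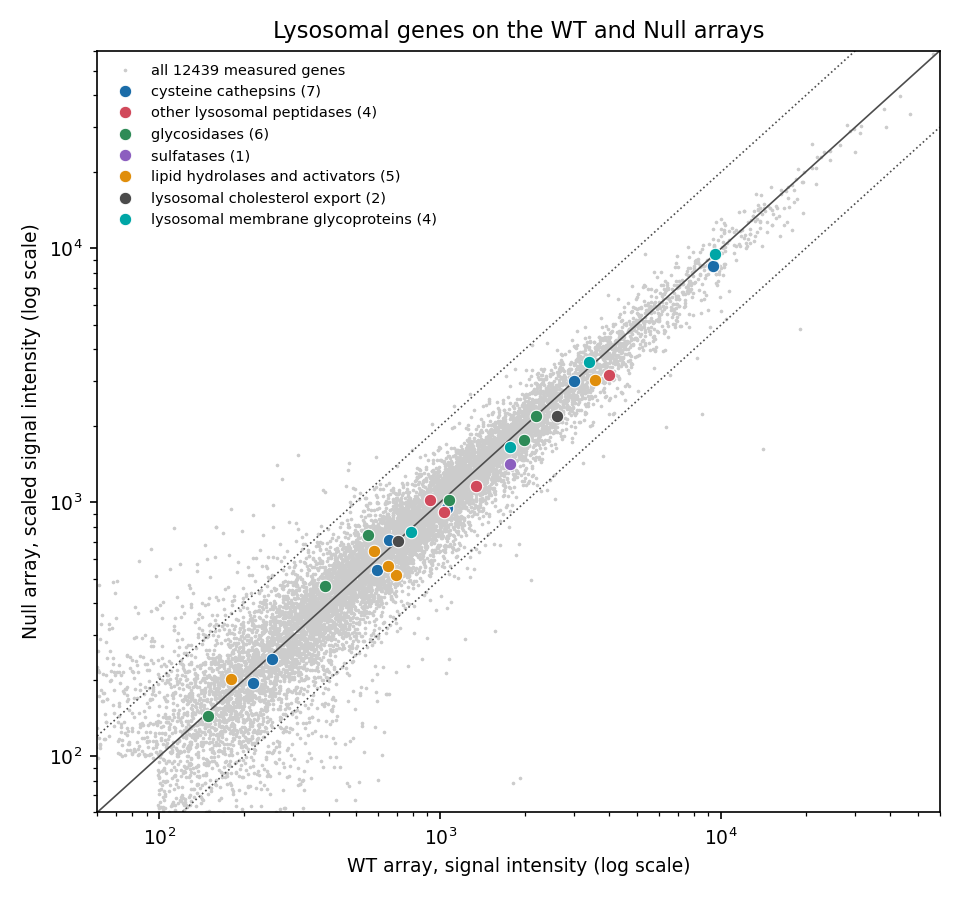
Signal intensity of each gene on the WT array (x axis) and on the Null array after scaling (y axis), both on log scales, with the 29 measured members coloured by role and all 12439 measured genes in grey; values under 60 lie outside the axes. The solid line marks equal signal and the dotted lines 2-fold differences, and every member lies between the dotted lines.

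The small differences leaned to the lower side. The median of the 29 members was -0.07 on the log2 scale, against -0.01 for all genes, and 21 of them had a ratio below 0, against 51.5% of all genes. Of the 21, 3 lay within 0.01 of 0. The number below 0 was 18 on the values as deposited and after loess, and 19 after quantile normalization. Signal was at least 10% lower in the Null array for 10 members and at least 10% higher for 5, and 14 stayed within 10% of WT. The quartiles of all genes, -0.22 and 0.20, also lay past 10% on either side, so differences of this size were common among all genes. On U74Av2 the median was -0.05 over 24 members, against -0.01 for all genes there.

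The only repeat within these data is that a gene can have several probe sets. When a gene had several on 1 chip, the spread between them was 0.15, 0.25 and 0.34 on the log2 scale at high, middle and low level on U74Av2. It was 0.24, 0.34 and 0.36 on U74Bv2 and 0.31, 0.44 and 0.58 on U74Cv2. Of the 29 members 9 lay farther than 1 such spread from the median of all genes, against 35.3% of all genes above the floor on both arrays. These were Ctsd, Lgmn, Arsb, Gaa, Psap and Npc2 on the lower side and Ctsa, Glb1 and Gusb on the higher side. Ctsd alone lay farther than 2 spreads (1 of 29, against 9.28% of genes). That spread takes in measurement error and transcript variants, but says nothing of variation among mice.

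**Figure D2:**
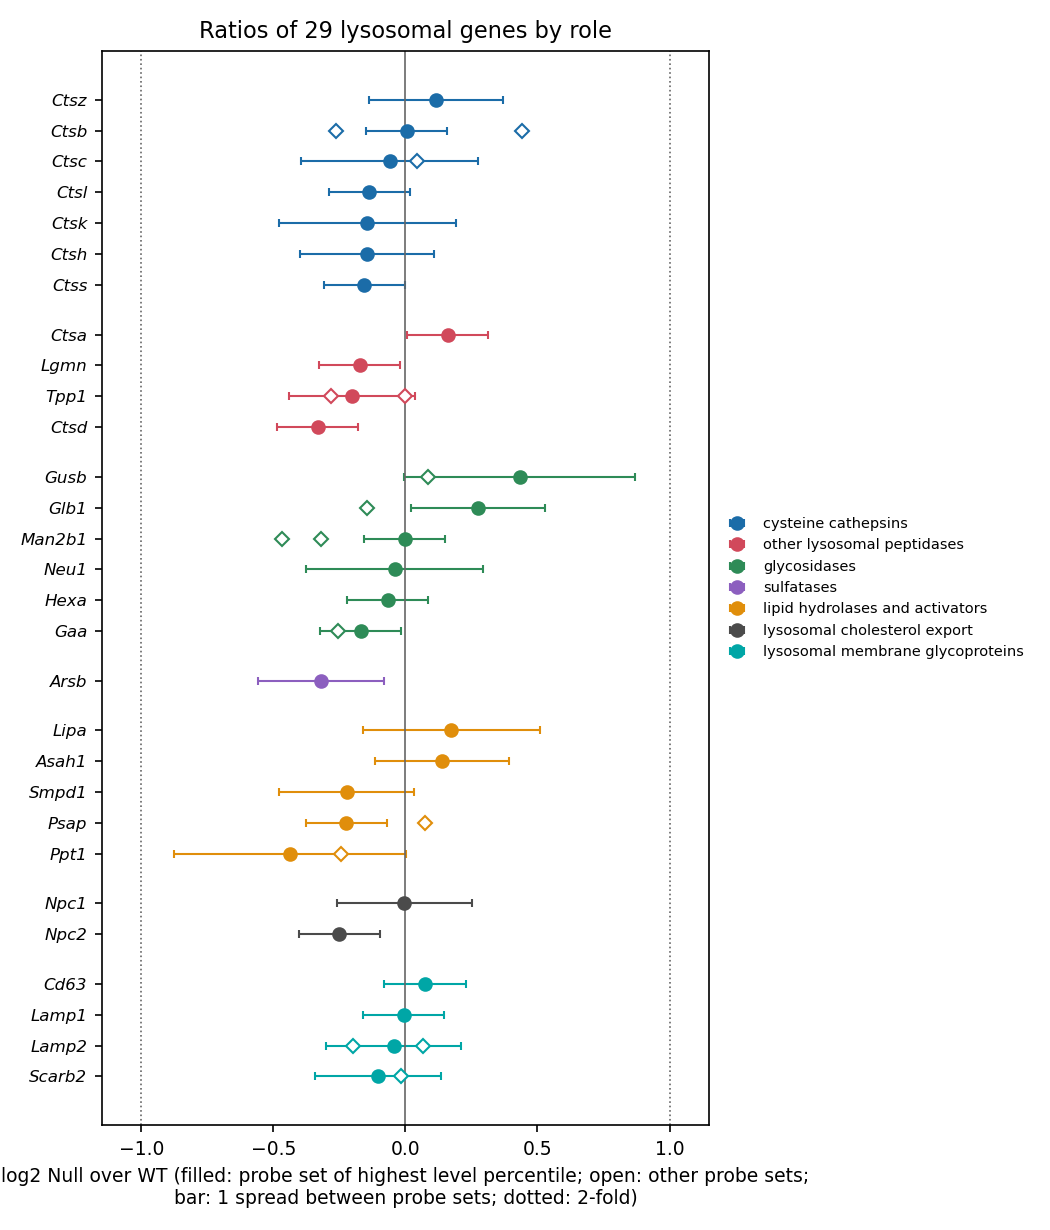
The log2 ratio of Null over WT (x axis) of the 29 measured members, grouped by role. Filled circles are the probe set of highest level rank with a bar of 1 spread between probe sets, open diamonds are the gene's other probe sets above the floor on both arrays, and the dotted lines mark 2-fold; all points lie between -0.47 and 0.44.

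The cysteine cathepsins, papain-like proteases that degrade proteins in the lysosome, had a median of -0.14 over all 7 members, with 5 below 0. Ctsl read 9346.1 on the WT array and 8548 on the Null array, a log2 ratio of -0.14. Ctsl is the middle member, so its ratio and the median of the 7 were both -0.05 after quantile normalization and -0.09 after loess. Ctss, a cathepsin of antigen-presenting cells and macrophages, read 1053.5 and 951.5, a ratio of -0.16. The matrix-degrading Ctsk of osteoclasts read 215.4 and 196 (-0.15). Ctsk lay well within the spread of its level, 0.34. Ctsh, an aminopeptidase, read 595.7 in the WT and 542 in the Null array (-0.15). The carboxypeptidase Ctsz read 653.9 and 712.8 (0.12). Ctsc, the dipeptidyl peptidase that activates granule proteases, read 250.7 and 242 (-0.06), and its other measured probe set, on U74Cv2, gave 0.05. Ctsb showed how little a dim probe set fixes. Its brightest probe set read 2992.9 and 3020.5, a ratio of 0.0044, while 2 dim ones on the same chip gave -0.26 (189.2 and 158.7) and 0.44 (146 and 199.7).

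Of the other lysosomal peptidases 3 had ratios below 0 and 1 above 0, with a median of -0.19, or -0.09 with U74Av2 alone or with only the probe sets that carry no suffix for sharing. Ctsd read 3981.5 on the WT array and 3181.4 on the Null array, 20.6% lower after scaling, a log2 ratio of -0.33 where the spread was 0.15. This rests on a single probe set. Lgmn, which also processes cathepsins to their 2-chain forms, read 1029.8 and 918.7 (-0.17). Tpp1, a tripeptidyl peptidase lost in a childhood ceroid lipofuscinosis, gave -0.20 and -0.28 on U74Bv2, from 1336.6 and 1165.3 and from 1084.7 and 895.8. Its probe set on U74Av2 gave -0.0020, from 986.7 and 991.4. The 2 probe sets on U74Bv2 carry a suffix that can mark sharing between transcripts, and the one on U74Av2 does not. Ctsa went the other way, at 915.8 and 1029.5 (0.16).

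The glycosidases, which trim sugars from glycoproteins and glycolipids, held both the highest ratios and several near 0. Their median was -0.02 over 6 of 7 members, and it turned to 0.02 after loess. Gusb, beta-glucuronidase, read 550.4 in the WT and 754.8 in the Null array on U74Cv2, a ratio of 0.43 where the spread was 0.44. Its probe set of plain design on U74Av2 read 364.5 and 388.7, a ratio of only 0.08. Glb1 read 387.7 and 472 (0.27), but a dimmer probe set on the same chip gave -0.15. The acid alpha-glucosidase Gaa was lower on both chips that measured it, at 1978.5 and 1769.5 on U74Av2 (-0.17) and at 1203 and 1023.2 on U74Cv2 (-0.26). The spreads there were 0.15 and 0.31.

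Man2b1, the lysosomal alpha-mannosidase, depended on the probe set. The brightest read 2186.1 on the WT and 2196.3 on the Null array (-0.0021), while the others gave -0.32 on U74Bv2, from 718 and 577.1, and -0.47 on U74Av2, from 199.7 and 145.5. Hexa, the alpha subunit of beta-hexosaminidase, stood at -0.07 (1073.7 and 1030.9) and the sialidase Neu1 at -0.04 (148.3 and 145.1), the latter turning to 0.04 after loess and to 0.02 after quantile normalization. Gla was the unmeasured member of this group, with 6.3 and 7.5, far under the floor of 98.3. The sulfatases, which remove sulfate from glycolipids and glycosaminoglycans, gave 1 measured gene. Arsb read 1773.6 and 1425.4 on U74Bv2, a ratio of -0.32 where the spread was 0.24. Arsa read 64.8 and 72.2 on its brighter probe set, under the floor on both arrays, and gives no ratio.

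Enzymes and activators of lipid breakdown had a median of -0.22 over 5 members, with 3 below 0, and -0.08 with all probe sets of a gene averaged. Ppt1, the thioesterase that removes fatty acids from proteins, read 698 in the WT and 524.1 in the Null array on U74Cv2, a ratio of -0.44 where the spread was 0.44. Its probe set on U74Bv2 read 431.7 and 366.2, a ratio of -0.24 where the spread was 0.36. Both chips thus gave a lower reading, but each within 1 spread of the median of all genes. Psap, the precursor of the saposins, which present sphingolipids to their hydrolases, read 3545.5 and 3053.4 (-0.22), but a dimmer probe set gave 0.07. Smpd1, acid sphingomyelinase, read 651.3 and 561.8 (-0.22). On the higher side were Asah1, acid ceramidase, at 582.7 and 645.2 (0.14), and Lipa, the acid lipase of cholesteryl esters, at 179.1 and 203.2 (0.17). Both lay within the spread of their level, 0.25 and 0.34.

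Both proteins that hand cholesterol out of the lysosome were measured, each by 1 probe set above the floor. The soluble carrier Npc2 read 2607.6 on the WT and 2204.5 on the Null array, a ratio of -0.25 where the spread was 0.15. The membrane protein Npc1, which takes cholesterol from it, read 706.5 and 709, a ratio of -0.0038 where the spread was 0.25. The difference between them was not tested.

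The membrane glycoproteins stayed near WT, with a median of -0.03 and all 4 between -0.10 and 0.07. Lamp1 read 9532.6 on the WT and 9550.4 on the Null array, a ratio of -0.0062 that turned to 0.04 after loess and to 0.08 after quantile normalization. Lamp2, the receptor of chaperone-mediated autophagy, read 784.2 and 764.7 (-0.05). Its other probe sets gave 0.07 on U74Av2 and -0.20 on U74Cv2, and a further one on U74Cv2 read 191.6 and 114.5, the latter under the floor, which makes it at least 1.54-fold lower. The tetraspanin Cd63 read 3373.9 and 3573.1 (0.07). Scarb2, the receptor that carries beta-glucocerebrosidase to lysosomes, read 1775.3 and 1657.4 on U74Bv2 (-0.10) and 291.5 and 289.6 on U74Av2 (-0.02).

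Probe sets of the same member did not always share a direction. The 31 genes had 63 probe sets, of which 44 lay above the floor on both arrays, 18 on neither and 1 on the WT array alone. Ratios of the 44 ran from -0.47 to 0.44, and 31 were below 0. By the brightest probe set, 51.5% of all genes were below 0. The share over all probe sets, and how often those of 1 gene agree in sign, are not given here. Of the 11 members with several measured probe sets, all were below 0 for Gaa, Man2b1, Ppt1, Scarb2 and Tpp1, and both were above 0 for Gusb. Signs were mixed for the other 5, Ctsb, Ctsc, Glb1, Lamp2 and Psap. The remaining 18 members rest on 1 measured probe set.

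The ratios of the members with the E-box lay inside the range of those without it. The 7 measured genes with CACGTG in their window, which are those printed above without Arsa and Gla, had a median of -0.14, with 5 below 0 and a range of -0.33 to 0.27. The 18 measured genes with a window and no match had a median of -0.09, with 14 below 0 and a range of -0.44 to 0.43. With the longer form GTCACGTG the order turned, at -0.0062 for 5 genes and -0.12 for 20.

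Of the transcription factors that read this element, Tfe3 alone was measured. Its brightest probe set, on U74Bv2, read 3599.5 in the WT and 3211 in the Null array, a ratio of -0.17. The others went further in the same direction. On U74Bv2 they gave -0.74, from 1112.5 and 668.5, and -0.49, from 1032.4 and 740.1, and on U74Cv2 -0.37, from 624 and 492. Tfeb read 17 and 26.1 and Mitf 75.1 and 39.2, both under the floor on both arrays, and no probe set was matched to Tfec.

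Other genes of the lysosome were read from lists that do not overlap the members. Of 48 further lysosomal hydrolases, membrane proteins and transporters 41 were matched and 38 measured, with a median of -0.12 and 23 below 0. The 1 gene past 2-fold was Acp5, an acid phosphatase that marks osteoclasts, at 1898.5 and 685.3 on U74Bv2, 2.78-fold lower. That probe set carries a suffix. The Acp5 probe set of plain design on U74Av2 gave -0.21, from 184.3 and 159.8. Subunits of the proton pump, the V-ATPase, had a median of 0.03 over 15 of 16, with 9 above 0 and none past 2-fold. Their median was -0.03 with all probe sets of a gene averaged. The brightest were Atp6v0a1 at 0.02 (3542.1 and 3657.5) and Atp6v1g1 at -0.10 (3398 and 3192.9). Sorting receptors, tag-forming enzymes and adaptors had a median of -0.06 over 30 of 32, with 17 below 0, and 0.05 with probe sets averaged. M6pr, the small receptor for the mannose 6-phosphate tag, was at least 3.27-fold lower, from 406.2 in the WT and 100.8 in the Null array on U74Cv2, where the floor was 124.1. This probe set of M6pr carries a suffix, and a second one, of plain design, lay under the floor on both arrays.

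**Figure D3:**
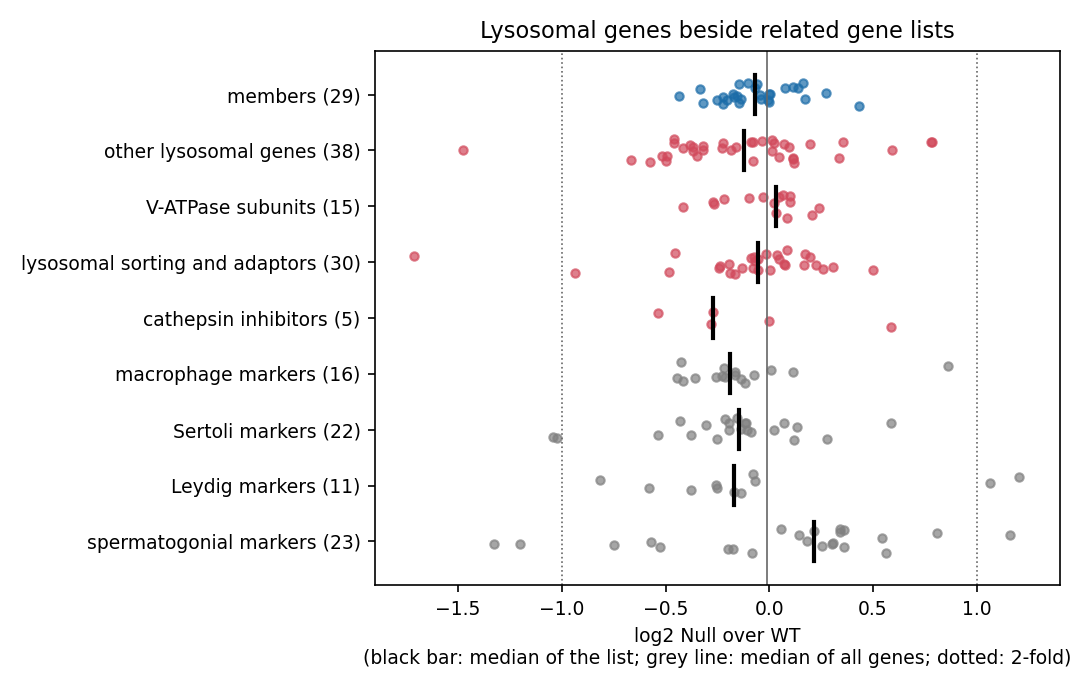
Log2 ratios of Null over WT (x axis) of each measured gene in the members, in lists of related lysosomal genes and inhibitors, and in lists of cell markers, with the number of genes in brackets. Black bars are medians, from -0.27 for the inhibitors to 0.22 for the spermatogonial markers; the members hold no point past the dotted lines of 2-fold.

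Markers of macrophages, Sertoli cells and Leydig cells each had a median ratio below 0. Macrophage markers had a median of -0.19 over 16 of 21, with 13 below 0, against 51.5% of all genes. Of the 13, Adgre1, Aif1 and Msr1 lay just above the floor on the WT array and under it on the Null array. The summed intensity of the macrophage markers was 27189.5 on the WT arrays and 22535.8 on the Null arrays. Their brightest members were Laptm5, itself a lysosomal membrane protein of blood cells, at -0.45 (13972.2 and 10423), with -0.01 and -0.19 in its other probe sets, and the chemokine receptor Cx3cr1 at -0.14 (2638.6 and 2437.5). The 3 markers above 0 were Lyz1 at 0.86 (656 and 1212.5), Cd14 at 0.11 and Csf1r at 0.0062. The brightest probe sets of Laptm5 and Lyz1 carry a suffix that can mark sharing between transcripts. Laptm5 held most of the difference between the sums. Without it, left out after the values were seen, the other 15 summed to 13217.3 and 12112.8, with a median of -0.17 and 12 below 0. Sertoli markers, a list that includes Ctsl, had a median of -0.15 over 22 of 23, with 16 below 0, and a summed intensity of 92095.9 and 81068.3. The homeobox gene Rhox5 (-1.04, from 1071.6 and 523.7) and Tsx (-1.02, from 296.3 and 146.9) were more than 2-fold lower. The 6 Sertoli markers above 0 were Cst12 at 0.59, Trf at 0.28, Gata4 at 0.14, Inhbb at 0.12, Sox9 at 0.07 and Gdnf at 0.02. The summed intensity of the 29 members was 54906.9 and 51748.5. No marker in these lists was at 0, but Ptprc, Itgam, Fcgr3, Fcer1g and Cd163 among the macrophage markers and Krt18 among the Sertoli markers lay under the floor on both arrays. The part of these markers in the lysosomal ratios was not tested.

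Leydig markers had a median of -0.17 over 11 of 15, with 9 below 0. The lowest of these were Cyp11a1 at -0.81, Hsd3b1 at -0.58 and Nr5a1, also in the Sertoli list, at -0.38. The rest were Fdx1 at -0.26, Cyp21a1 at -0.25, Star at -0.17, Cyp17a1 at -0.13, Cyp11b1 at -0.08 and Scarb1 at -0.07. The other 2, Hsd17b3 at 1.20 (138.4 and 320.3) and Thbs2 at 1.06 (1278.6 and 2716.3), were past 2-fold. Thbs2 was read on U74Cv2 by a probe set with a suffix, and its plain probe set on U74Av2 lay under the floor on both arrays (53.6 and 61.5). Spermatogonial markers had a median of 0.22 over 23 of 27, with 15 above 0, and 0.14 with all probe sets of a gene averaged. The 8 below 0 included the targeted gene Zbtb16 itself and Sall4. Others were Lhx1 and Egr3, both under the floor on the Null array, and Tex101 (-0.53), Id4 (-0.20), Stra8 (-0.18) and Egr2 (-0.08). Bcl6b stood at 1.16 (160.7 and 365.3). Its probe set on U74Av2, under the floor on the WT array (75.8 and 114.8), gave at least 0.21, and another on U74Cv2 lay under the floor on both arrays. Sall4 stood at -1.32 (2568.1 and 1042.1) while its other probe sets, of plain design, gave 0.63 and 0.27. The brightest probe sets of Bcl6b and Sall4 carry a suffix. The targeted gene Zbtb16 read 770.2 on the WT and 158.1 on the Null array of U74Av2, 4.90-fold lower, and 1156.8 and 510.8 on U74Cv2, 2.30-fold lower. Another probe set of it lay under the floor on both arrays.

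Under the 10 other ways of processing that were tried, the median of the members lay between -0.10 and -0.04, and no member reached 2-fold.

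**Figure D4:**
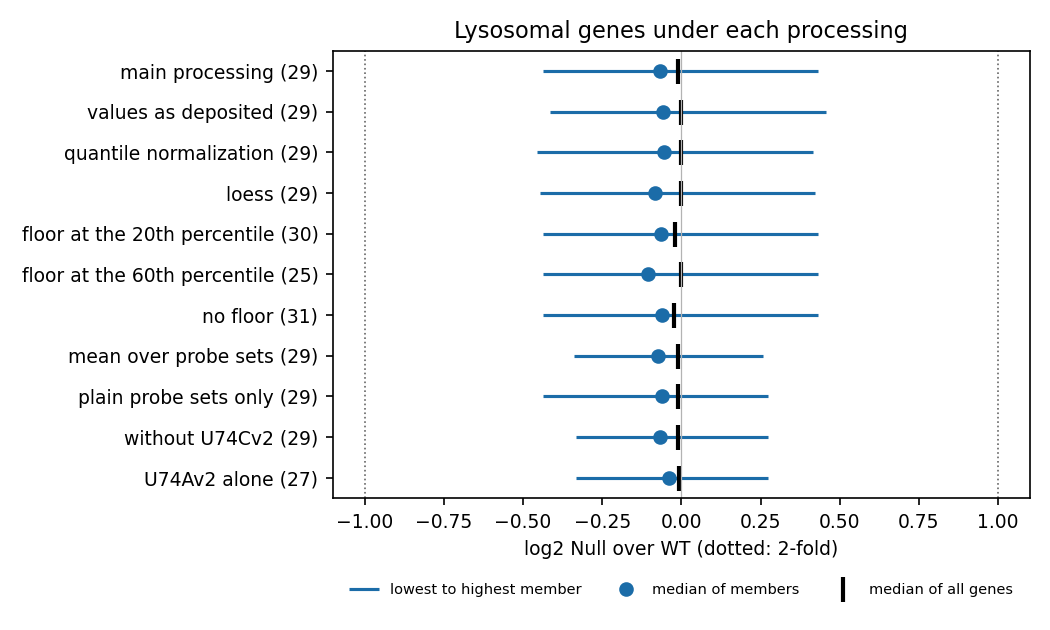
Median (circles) and full range (lines) of the members' log2 ratios of Null over WT, and the median of all genes (black ticks), under the main processing and 10 alternatives, with the number of measured members in brackets. The members' median stays between -0.10 and -0.04 and the range stays inside the dotted 2-fold lines in each.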

How the data were processed

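Linear signal intensities per probe set, as deposited by the authors, were the starting point. Which software and background correction made them is not given in the sources used here. After the lowest and highest 2% were left out, the mean was 500.1 or 500.3 on every array, so the intensities had been scaled by array. The number of arrays limits the precision.

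Each chip was processed alone, without its 66 control probe sets. Null values were divided by their median ratio to WT over the brighter 50% of probe sets (log2 shifts of 0.01, 0.00 and 0.02), and values under the 40th percentile (98.3, 165.2 and 124.1) were raised to it before log2 was taken. Where 1 array is at the floor, the fold is a bound. No test was made.

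Gene names came from GEO's platform annotation, updated to RefSeq through Entrez identifiers. All members with a value are given, and of other lists the genes past 2-fold (at most 4) or the brightest 2. The macrophage and Sertoli markers above 0 and the remaining measured inhibitors were added after the values were seen. So were the Leydig and further spermatogonial markers below 0. The members and lists were chosen with earlier results of these data known. Calculations were tested on simulated data and used Python 3.11.15, numpy 2.4.6, pandas 2.3.3, statsmodels 0.14.6 and matplotlib 3.10.9. Alternatives were other normalizations, floors, thresholds, probe set choices and chips.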

Additional observations from a re-analysis of the deposited data

How the results depend on the processing

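The median of the members was -0.06 on the values as deposited and after quantile normalization, -0.08 with loess, -0.10 when the 60th percentile served as floor and -0.04 with U74Av2 alone. No member was 2-fold different under any of the 10 alternatives, nor 1.5-fold or 3-fold under the main one. Of 284 single ratios recomputed 283 stayed within the spread between probe sets of their level, and the exception was Man2b1 at -0.26 with its probe sets averaged. Many of the 284 could not move, because another floor leaves a ratio unchanged when both values lie above it. Dropping chips or probe sets moves only members that lose their brightest probe set, and averaging only those with several measured. Of 158 medians of smaller groups and other lists 147 moved by less than the error that spread gives. Among the others, the further lysosomal genes stood at -0.25 with U74Av2 alone and the lipid group at -0.04. The 2 unmeasured members limit what can be said of Gla and Arsa. No paired analysis was possible because each genotype has 1 array per chip.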

Other observations

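Listed inhibitors of proteases, mostly small proteins of the cystatin family but also a serpin, were on the arrays for 10 of 12 genes, and 5 of them were measured. Their median was -0.27, with 4 below 0 and none past 2-fold. The 1 above 0 was Cst12, also in the Sertoli list, at 0.59 (810.1 and 1237). Serpinb6a stood at -0.0030 and Cstb at -0.27. Cst3, the secreted cystatin C, read 9574.8 on the WT and 7935.8 on the Null array (-0.28), and its dimmer probe set on the same chip gave -0.59. Cst9, a cystatin that is also in the Sertoli list, read 7947.6 and 5520.3 (-0.53), where the spread between probe sets was 0.15. These values come from single arrays, and whether the inhibitors differ from the cathepsins was not tested.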
